A study of Mus musculus with 8 samples.

Results

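Integrins and laminins are the receptors and ligands through which a mesenchymal cell holds on to its basement membrane. The genes described here are those whose symbols name an integrin alpha chain, an integrin beta chain or a laminin chain. There were 37 of them among the 41325 gene symbols listed in each library, with 18 integrin alpha, 8 integrin beta and 11 laminin genes. Of the 37 genes, 19 had an RPKM over 1 in at least 1 library, against 11513 of all listed genes. RPKM counts reads relative to exon length and to the mapped reads of the library, so levels can be compared between genes of different length.

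The cells were C3H10T1/2, mesenchymal stem cells (MSCs) of the mouse that can be turned into fat cells. A control line (shControl) and 3 knockdown lines carrying a short hairpin RNA (shKDM4D, shNFIB and shMLL1) were sequenced before induction (day 0) and 5 days into adipogenic differentiation (day 5). The methods describe puromycin selection for the knockdown lines, and whether the control line carried a hairpin or was selected is known only from its label. In all lines induction was by insulin, dexamethasone and isobutylmethylxanthine (MDI). The hairpins were aimed at KDM4D (a histone demethylase), NFIB (a transcription factor) and MLL1 (a histone methyltransferase, encoded by *Kmt2a*). The methods describe isolating resistant clones, so a line may stem from few cells, and a difference between lines can be a difference between clones. There was 1 library per condition and 8 in all, so a ratio of 1 library to another has no replicate check and no p-value. Only the change between days, averaged over the 4 lines, could be tested. The intervals printed with log2 ratios are exact 95% intervals for the counting error of the recovered reads alone.

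Between 15800000 and 38200000 mapped reads were recovered per library. *Nfib* was lower in shNFIB cells (log2 ratio to shControl -2.10 at day 0 and -2.33 at day 5) and *Kmt2a* was lower in shMLL1 cells (-1.37 and -1.70). *Kdm4d* had 1 and 4 reads in shKDM4D cells against 2 and 13 in shControl cells, too few to show a knockdown at day 0. Of the 8 mesenchymal markers, 6 or 7 exceeded 1 RPKM in each library, but *Nt5e* was at most 0.0218 RPKM everywhere. *Thy1* was at 25.0 and 22.6 RPKM in shControl cells, 11.8 and 11.1 in shMLL1 cells and at most 0.139 in shKDM4D and shNFIB cells. The 8 adipocyte markers summed to between 4.17 and 9.63 RPKM at day 0. At day 5 their sum was 833 RPKM in shControl cells, 36.3 in shKDM4D, 11.9 in shMLL1 and 9.52 in shNFIB cells, and its part in the day 5 values given here was not tested. In such bulk samples, fewer cells of a type and less RNA per cell cannot be told apart.

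An integrin is a pair of 1 alpha and 1 beta chain in the cell membrane. The pair sets the ligand, such as collagen, laminin or the RGD motif of fibronectin and vitronectin, while the beta chain tail joins talin and kindlin to the actin cytoskeleton. A laminin is a trimer of 1 alpha, 1 beta and 1 gamma chain and a part of basement membranes. In textbook accounts of fat cell formation, precursors leave a fibronectin-rich matrix, bound largely through the *Itga5* chain, for a laminin-containing basement membrane, bound through chains such as *Itga6*.

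Promoters of 23 of the 37 genes were in the RefSeq promoter table for GRCm38.p6, which runs from 250 bases before to 50 bases after each start and gave 26 promoters. Of these, 3 are shown because they belong to genes past 2-fold between the days in every line: *Lamb2* and *Itgb7*, which moved in opposite directions, and *Lamb3*, which had the largest ratio of shNFIB to shControl cells at day 5. They lie at chr9:108479612-108479911 on the plus strand (*Lamb2*), chr15:102231886-102232185 on the minus strand (*Itgb7*) and chr1:193301993-193302292 on the plus strand (*Lamb3*). Capitals mark the NFI half-site TTGGC read on either strand, which appears as GCCAA when it lies on the other strand.
Lamb2: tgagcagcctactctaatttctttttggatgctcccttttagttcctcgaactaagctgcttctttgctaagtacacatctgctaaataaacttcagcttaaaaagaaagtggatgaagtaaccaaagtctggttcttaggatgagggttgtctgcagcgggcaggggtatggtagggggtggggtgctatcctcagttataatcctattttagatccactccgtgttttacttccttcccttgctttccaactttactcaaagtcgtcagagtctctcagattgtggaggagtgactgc
Itgb7: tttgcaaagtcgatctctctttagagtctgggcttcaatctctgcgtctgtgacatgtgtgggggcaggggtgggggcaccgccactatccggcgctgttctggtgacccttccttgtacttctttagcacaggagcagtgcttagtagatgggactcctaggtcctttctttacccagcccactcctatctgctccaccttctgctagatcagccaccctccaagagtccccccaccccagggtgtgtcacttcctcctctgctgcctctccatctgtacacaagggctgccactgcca
Lamb3: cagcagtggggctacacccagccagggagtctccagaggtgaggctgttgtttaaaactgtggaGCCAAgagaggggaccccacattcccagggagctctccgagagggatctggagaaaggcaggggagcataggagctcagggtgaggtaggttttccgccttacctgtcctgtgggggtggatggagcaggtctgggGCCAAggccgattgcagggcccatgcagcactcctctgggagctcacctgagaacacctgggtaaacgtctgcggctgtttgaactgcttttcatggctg

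The table lists 2 *Lamb3* promoters, of which the one shown held 2 half-sites and the other 1, and those of *Lamb2* and *Itgb7* held none. Half-sites were present in 11 of the 26 promoters, against 46.7% of all 32851 promoters in the table. The most half-sites, 3, were in the *Itgb8* promoter. The full palindrome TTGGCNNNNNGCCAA, which contains a half-site at each end, was in none of the 26 and in 0.0365% of all promoters. The C/EBP motif TTGCNNAA was also in none of the 26, against 10.8% of all. These counts describe letters in a 300-base window.

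The adhesion repertoire of these cells was narrow. Only 8 of the 37 genes were over 5 RPKM in every library, namely *Itga5*, *Itgav*, *Itgb1*, *Itgb5*, *Lama4*, *Lamb1*, *Lamb2* and *Lamc1*. *Itgb1*, the beta chain that most alpha chains pair with, was the highest of all 37 in every library. It supplied between 67.8% and 86.1% of the summed RPKM of the 8 beta chains. *Itga5* and *Itgav* were first and second among the alpha chains in every library, although in shNFIB cells at day 0 their RPKM values were level (ratio of *Itgav* to *Itga5* 0.999, interval 0.955 to 1.05). *Lama4* made up 96.2% to 99.7% of the laminin alpha sum and *Lamc1* 97.4% to 99.7% of the gamma sum. Only the beta chain of laminin had 2 abundant genes, *Lamb1* and *Lamb2*.

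**Figure D1:**
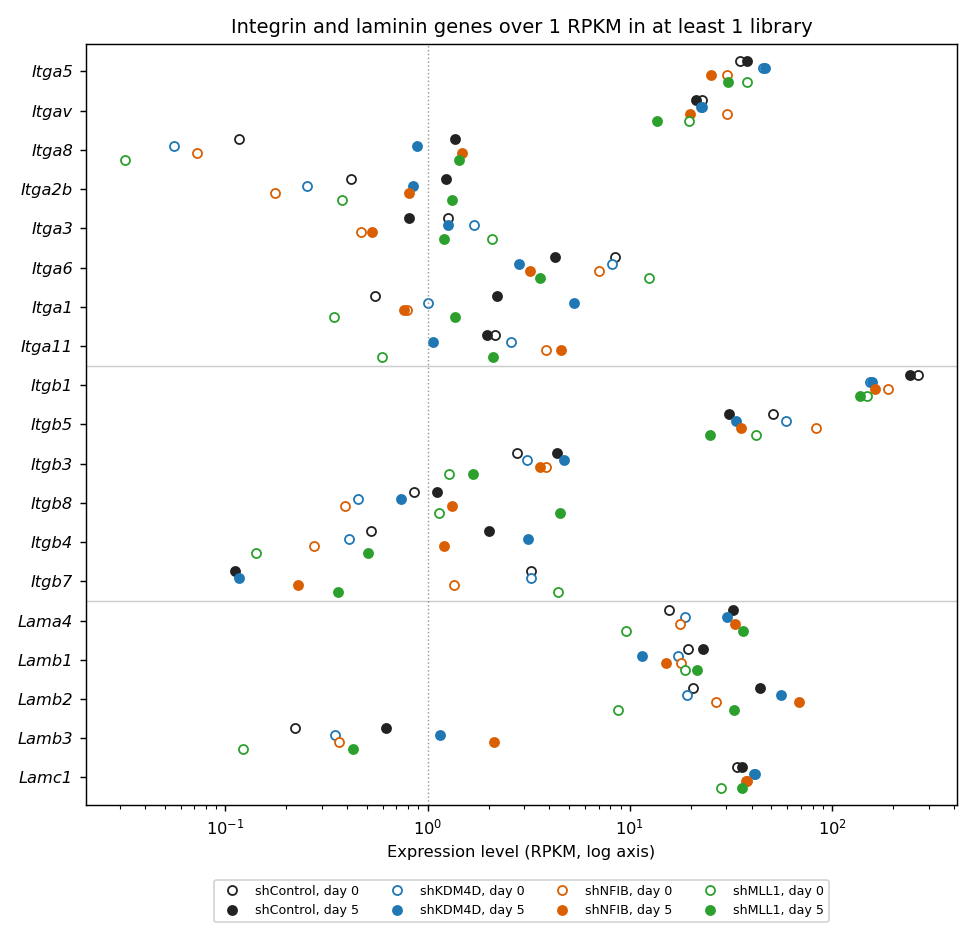
Expression level (RPKM, log axis) of the 19 genes over 1 RPKM in at least 1 library, with alpha chains, beta chains and laminins in separate blocks. Open points are day 0 and filled points day 5, 1 library each, coloured by line. *Itgb1* lies furthest to the right, between 138 and 265 RPKM, and *Itga8* and *Itgb7* have the widest gaps between open and filled points.

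The first question was how these genes differed between day 0 and day 5, that is, before and after induction. A gene was counted when its RPKM differed by more than 2-fold between the libraries. In shControl cells 7 of the 19 genes were past 2-fold up and 1 past 2-fold down, with 13% and 8.56% of all 11513 expressed genes. In shKDM4D cells 6 were up and 3 down, with 12.8% and 8.44% of all genes. More of the genes were thus up than down in both lines, and the other lines followed the same pattern. In shNFIB cells 6 were up and 3 down, with 12.6% and 4.96% of all genes. In shMLL1 cells 9 were up and 2 down, with 20.4% and 6.89% of all genes. The upward share of the 19 genes was thus 31.6% to 47.4%, above that of all genes in each line. However, *Itga1*, *Itga2b*, *Itga8*, *Itgb4* and *Lamb3* were over 1 RPKM in day 5 libraries alone, and *Itgb7* in day 0 libraries alone. These counts and the test below thus rest partly on genes that passed the filter through the day on which they were high. The same filter was applied to all genes.

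The mean change between days was then tested with limma over all 11513 expressed genes, on the log2(RPKM + 0.1) scale, which understates the change of low genes, with line as a block. The 4 lines stand in for replicates in this fit, so that any difference between lines in the change counts as error. By adjusted p (Benjamini-Hochberg, threshold 0.05), 8 of the 19 genes rose and 3 fell, against 29% and 21% of all genes. The genes that rose were *Itga1*, *Itga2b*, *Itga8*, *Itgb4*, *Itgb8*, *Lama4*, *Lamb2* and *Lamb3*, and those that fell were *Itga6*, *Itgb5* and *Itgb7*. *Lamb2* had the smallest adjusted p (limma, 0.000946), with a mean change of 1.47 (SE 0.14) and a higher value at day 5 in 4 of 4 lines. The least certain of the calls were *Itgb8* (1.09, SE 0.30, limma adjusted p = 0.0263) and *Itga1* (1.45, SE 0.39, limma adjusted p = 0.0226), the latter higher at day 5 in 3 of 4 lines. Both calls were lost in a fit without the shMLL1 line and in one without the line block. That of *Itgb8* was also lost without shNFIB cells or with 1 added to every RPKM, and that of *Itga1* without shControl or shKDM4D cells. With quantile normalization 3 rose (*Itga8*, *Lama4* and *Lamb2*) and 4 fell (*Itga3*, *Itga6*, *Itgb5* and *Itgb7*). Of all 11513 genes, 2425 rose and 3180 fell in that fit, so the lead of risers over all genes was not kept.

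The gains lay in genes of low or middle level and in 2 laminin chains, and the abundant integrin genes were not among them. On the log2 scale the median change was 0.23 in shControl, 0.03 in shKDM4D, 0.40 in shMLL1 and 0.01 in shNFIB cells, against 0.03, 0.03, 0.17 and 0.10 for all expressed genes. With quantile normalization the medians of the 19 were 0.08, 0.00, -0.23 and -0.21, so the median turned negative in shNFIB and shMLL1 cells. Moreover, that scaling brought the shControl counts to 5 up and 3 down and the shMLL1 counts to 4 up and 3 down. Adding 1 to every RPKM, which damps low genes, left 4, 5, 6 and 4 genes past 2-fold in the same order of lines.

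**Figure D2:**
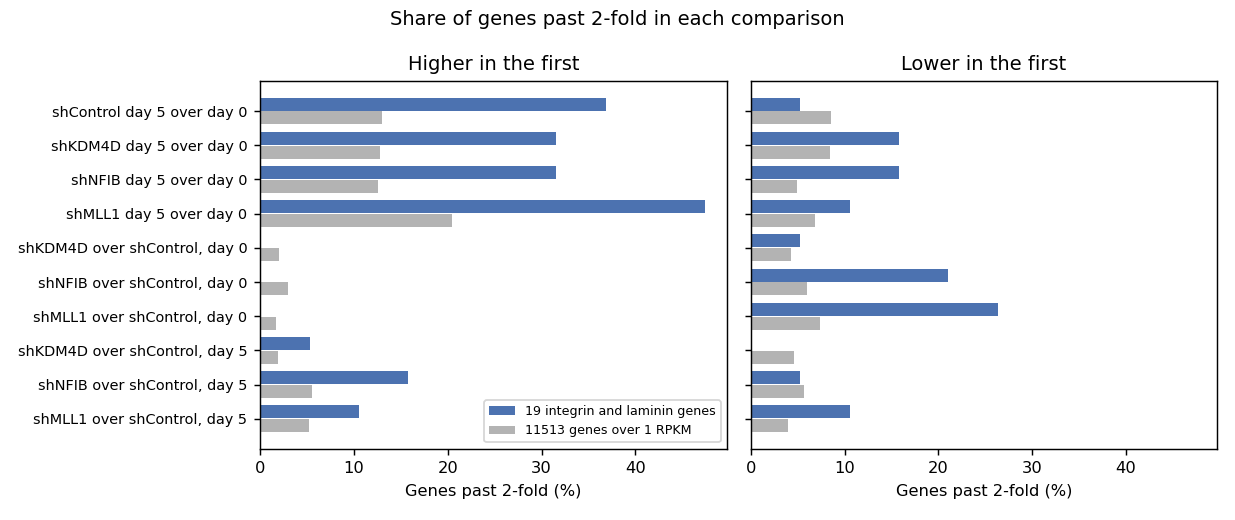
Percentage of genes more than 2-fold higher (left) or lower (right) in the first condition of each of 10 comparisons. Blue bars are the 19 integrin and laminin genes and grey bars the 11513 genes over 1 RPKM. Between days the blue bars on the left reach 31.6% to 47.4%, and the grey bars 12.6% to 20.4%.

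Of the 19 genes, 6 were past 2-fold in the same direction in all 4 lines. *Itga2b*, *Itga8*, *Itgb4*, *Lamb2* and *Lamb3* rose and *Itgb7* fell. Each line has its own 2 libraries, so these 4 changes share no library. The share of all expressed genes past 2-fold in every line was not counted, so no background stands beside the 6. Apart from *Lamb2*, the 6 passed the filter of 1 RPKM on only 1 day. This was day 0 for *Itgb7* and day 5 for the others. Median-of-ratios scaling kept all of these changes past 2-fold. With quantile normalization, by contrast, *Itga2b* stayed below 2-fold in every line (0.58 to 0.97), *Lamb3* passed it in shNFIB cells alone, and *Itgb4* and *Lamb3* turned to -0.42 and -0.56 in shMLL1 cells. With the ratio to *Gapdh*, *Lamb2* in shNFIB cells was at 0.80. *Itga6* joined the 6, with a decrease past 2-fold in all 4 lines, under median-of-ratios scaling (-1.01 to -1.96) and quantile normalization (-1.04 to -2.03). Only *Lamb2* among the 6 was over 5 RPKM in every library, so the other changes rest on low levels.

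**Figure D3:**
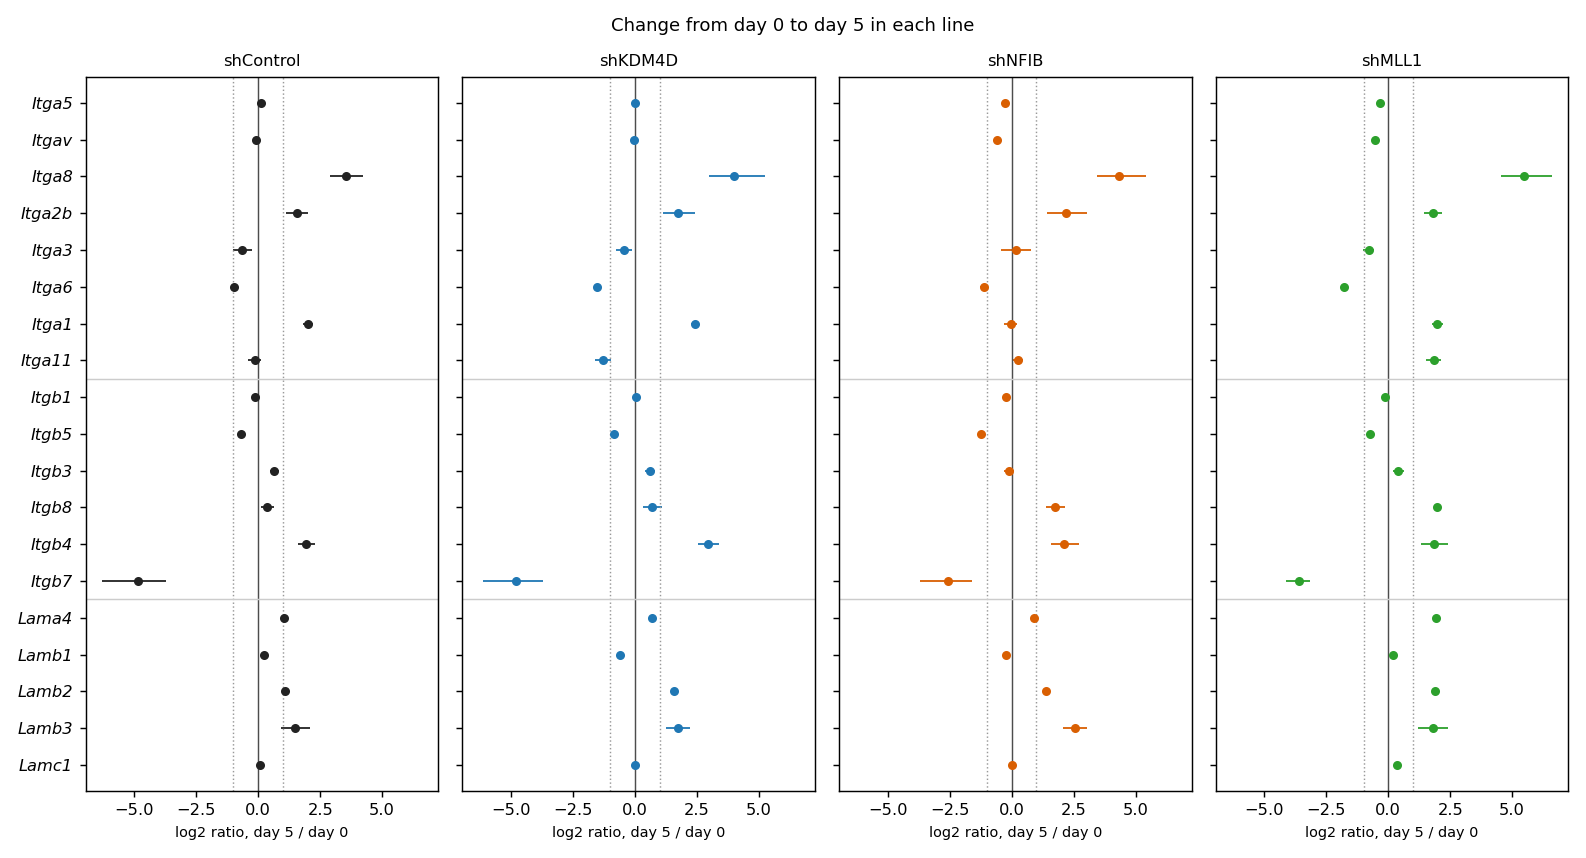
The log2 ratio of day 5 to day 0 for the 19 genes in each line, with exact 95% counting intervals as bars and dotted lines at 2-fold. *Itga8* lies furthest to the right (3.54 to 5.48) and *Itgb7* furthest to the left (-2.57 to -4.86) in all 4 lines. The shMLL1 points of *Itgb4* (1.83) and *Lamb3* (1.80) became negative with quantile normalization.

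The laminin chains showed the clearest change among abundant genes. *Lama4* (chromosome 10, 38965515 to 39110188, plus strand), the alpha chain of vessel, fat and other mesenchymal basement membranes, went from 15.6 to 32.2 RPKM in shControl cells. It went from 18.8 to 30.3 RPKM in shKDM4D cells, from 9.53 to 36.3 in shMLL1 cells and from 17.7 to 33.1 in shNFIB cells. The day 5 level was above every day 0 level in all lines and spanned a narrow range, so the lines differed more at day 0. The log2 change was 1.04 (0.99 to 1.09) in shControl and 1.93 (1.88 to 1.98) in shMLL1 cells, while 0.69 (0.64 to 0.75) in shKDM4D and 0.90 (0.85 to 0.96) in shNFIB cells were below the threshold, although the ratio to *Gapdh* gave 1.16 in shKDM4D cells. The change in shMLL1 cells was larger than in shControl cells by 0.89 (0.82 to 0.96).

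*Lamb2* (chromosome 9, 108479736 to 108490530, plus strand), the beta chain best known from the neuromuscular junction and the kidney filter, rose in all 4 lines. Its RPKM went from 20.5 to 43.9 in shControl, from 19.1 to 56.2 in shKDM4D, from 8.77 to 32.5 in shMLL1 and from 26.5 to 68.5 in shNFIB cells. The shNFIB library was the highest and the shMLL1 library the lowest at both days. The log2 changes, with lines ordered as before, were 1.10 (1.03 to 1.16), 1.56 (1.49 to 1.63), 1.89 (1.82 to 1.96) and 1.37 (1.31 to 1.43). The promoter window printed for it had 44% G and C.

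*Lamb1* (chromosome 12, 31265234 to 31329644, plus strand), the widespread beta chain of early basement membranes, did not pass 2-fold in any comparison. Its RPKM was 19.5 and 22.9 in shControl cells at days 0 and 5, 17.3 and 11.5 in shKDM4D, 18.8 and 21.5 in shMLL1, and 17.8 and 15.0 in shNFIB cells. At day 0 the 4 lines lay within 17.3 to 19.5 RPKM, and at day 5 shKDM4D cells were the lowest. The change between days differed from that of shControl cells by -0.82 (-0.91 to -0.72) in shKDM4D and -0.48 (-0.58 to -0.38) in shNFIB cells, against -0.04 (-0.11 to 0.04) in shMLL1 cells.

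As a result, the balance of the 2 beta chains, taken within each library and so free of scaling between libraries, moved toward *Lamb2* in every line. The ratio of *Lamb2* to *Lamb1* went from 1.05 (1.01 to 1.10) to 1.92 (1.84 to 2.00) in shControl cells and from 1.10 (1.05 to 1.16) to 4.87 (4.65 to 5.10) in shKDM4D cells. It went from 1.49 (1.42 to 1.56) to 4.55 (4.34 to 4.78) in shNFIB and from 0.466 (0.444 to 0.490) to 1.51 (1.47 to 1.56) in shMLL1 cells. At day 5 the counting intervals of shKDM4D and shNFIB cells lay well above those of shControl and shMLL1 cells. At day 0 only shMLL1 cells had more *Lamb1* than *Lamb2* per length.

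**Figure D4:**
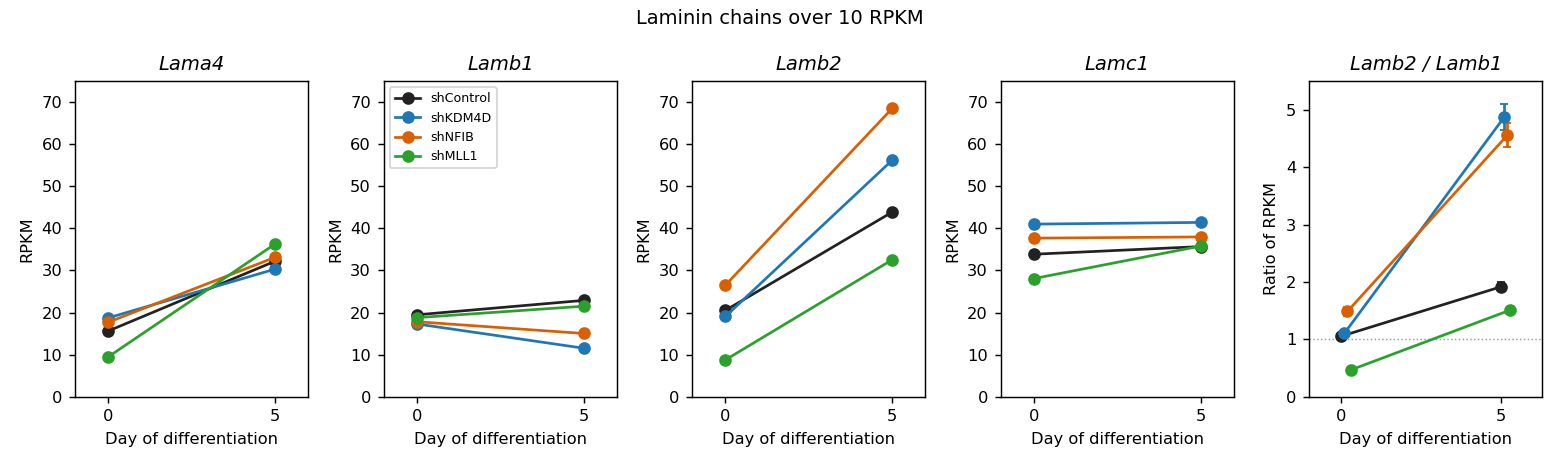
RPKM of the 4 laminin chains over 10 RPKM at day 0 and day 5 (first 4 panels, axes from 0) and the ratio of *Lamb2* to *Lamb1* within each library (last panel, bars are 95% counting intervals, points spread sideways for legibility). Lines join the 2 libraries of each cell line. *Lamb2* rises in all 4 lines, *Lamc1* lies between 28.1 and 41.4 RPKM throughout, and the ratio ends at 4.87 in shKDM4D and 4.55 in shNFIB cells against 1.92 in shControl cells.

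*Lamc1* (chromosome 1, 153218922 to 153332786, minus strand), the gamma chain shared by most laminins, was among the steadiest of the genes. It was at 33.9 and 35.7 RPKM in shControl cells, 41.0 and 41.4 in shKDM4D, 28.1 and 35.8 in shMLL1, and 37.7 and 38.0 in shNFIB cells. Its largest change between days was 0.35 (0.31 to 0.39) in shMLL1 cells. The ratio of *Lama4* to *Lamc1* within a library accordingly went from 0.462 to 0.903 in shControl cells, from 0.457 to 0.732 in shKDM4D, from 0.339 to 1.01 in shMLL1 and from 0.470 to 0.873 in shNFIB cells.

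*Lamb3* (chromosome 1, 193207699 to 193343878, plus strand), a beta chain of the anchoring laminin of skin, was low but rose in every line except under quantile normalization, where shMLL1 cells gave -0.56. Its RPKM went from 0.221 to 0.626 in shControl, from 0.348 to 1.15 in shKDM4D, from 0.123 to 0.428 in shMLL1 and from 0.365 to 2.14 in shNFIB cells. These levels rest on 31 to 224 reads. The shNFIB library at day 5 was the highest, with a log2 ratio to shControl of 1.77 (1.40 to 2.16). *Lama3*, the alpha chain it pairs with, stayed at or under 0.0806 RPKM.

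*Lama1*, *Lama2*, *Lama3*, *Lama5* and *Lamc3* stayed below 1 RPKM in every library, with *Lama5* highest at 0.361 RPKM in shMLL1 cells at day 0. Epithelial cells are the usual source of *Lama3* and *Lamb3*. The 6 epithelial markers summed to between 0.699 and 1.98 RPKM at day 0 and between 0.710 and 1.53 at day 5. *Epcam* was at 0 in all 8 libraries, but *Cdh1* was detected in each, at 0.430 to 1.63 RPKM (38 to 198 reads). *Krt14* was at 1.04 RPKM (34 reads) in shNFIB cells at day 0.

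Among the laminin receptors, *Itga6* (chromosome 2, 71745616 to 71858416, plus strand), which binds laminin together with *Itgb1* or *Itgb4*, was lower at day 5 in each line. Its RPKM went from 8.43 to 4.26 in shControl cells, from 8.19 to 2.84 in shKDM4D, from 12.5 to 3.58 in shMLL1 and from 7.03 to 3.22 in shNFIB cells. All day 5 levels lay below all day 0 levels. The log2 change was -1.53 (-1.67 to -1.38) in shKDM4D, -1.12 (-1.28 to -0.97) in shNFIB and -1.80 (-1.89 to -1.71) in shMLL1 cells. In shControl cells it was -0.99 (-1.11 to -0.86), just inside the threshold, and it was -1.01 with median-of-ratios scaling. The change exceeded that of shControl cells by -0.81 (-0.97 to -0.66) in shMLL1 and -0.54 (-0.73 to -0.35) in shKDM4D cells.

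*Itga3*, a laminin receptor chain prominent in epithelia, was at 1.26 and 0.806 RPKM in shControl cells, 1.69 and 1.26 in shKDM4D, 2.08 and 1.21 in shMLL1, and 0.469 and 0.531 in shNFIB cells. The shNFIB libraries were the lowest at both days, with a log2 ratio to shControl of -1.42 (-1.90 to -0.96) at day 0 and -0.60 (-1.14 to -0.08) at day 5. Between days *Itga3* did not pass 2-fold, but quantile normalization gave -1.21 in shControl and -1.43 in shMLL1 cells. *Itga7*, the laminin receptor chain of muscle, stayed under 1 RPKM. It went from 0.107 to 0.543 RPKM in shControl cells (23 and 85 reads) but was at 0.0696 and 0.0686 in shKDM4D cells (11 and 12 reads), a difference in change of -2.37 (-3.72 to -1.01). *Itga7* was singled out after its values were seen.

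*Itgb4* (chromosome 11, 115974709 to 116008412, plus strand), the hemidesmosome chain that pairs with *Itga6* alone, was low and rose in all 4 lines, although it gave -0.42 in shMLL1 cells with quantile normalization. Its RPKM went from 0.524 to 2.02 in shControl cells, from 0.409 to 3.15 in shKDM4D, from 0.142 to 0.505 in shMLL1 and from 0.275 to 1.21 in shNFIB cells. In the same order of lines, this was a log2 change of 1.95 (1.61 to 2.29), 2.95 (2.55 to 3.37), 1.83 (1.30 to 2.39) and 2.13 (1.59 to 2.71). The shMLL1 libraries were the lowest at each day, and shKDM4D cells were the highest at day 5. *B230344G16Rik* on the opposite strand shares 7.66% of the *Itgb4* exon length.

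The fibronectin receptor chain *Itga5* (chromosome 15, 103344286 to 103366763, minus strand) passed 2-fold in no comparison. It was at 34.9 and 37.9 RPKM in shControl cells, 45.7 and 46.4 in shKDM4D, 37.9 and 30.5 in shMLL1, and 30.2 and 25.2 in shNFIB cells. The shKDM4D libraries were the highest and the shNFIB libraries the lowest at both days. With *Itga6* lower and *Itga5* near its starting level, the ratio of *Itga5* to *Itga6* within a library went from 4.14 (3.93 to 4.36) to 8.91 (8.23 to 9.65) in shControl and from 5.58 (5.26 to 5.93) to 16.3 (14.9 to 17.8) in shKDM4D cells. In shNFIB cells it went from 4.30 (4.02 to 4.61) to 7.80 (7.05 to 8.65), and in shMLL1 cells from 3.04 (2.93 to 3.16) to 8.50 (7.99 to 9.05). The ratio was therefore higher at day 5 in every line, with intervals apart.

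*Itgav*, the alpha chain of the vitronectin receptors, was at 22.8 and 21.2 RPKM in shControl cells, 22.7 and 22.4 in shKDM4D, 19.7 and 13.6 in shMLL1, and 30.2 and 19.8 in shNFIB cells. Its change between days was -0.61 (-0.67 to -0.55) in shNFIB and -0.54 (-0.59 to -0.49) in shMLL1 cells. Its partner *Itgb5* (chromosome 16, 33829665 to 33949338, plus strand) went from 50.8 to 31.1 RPKM in shControl cells, from 59.3 to 33.4 in shKDM4D, from 41.8 to 24.8 in shMLL1 and from 83.5 to 35.5 in shNFIB cells. The day 5 level was below the day 0 level in each line, but only shNFIB cells, which began highest, fell past 2-fold (-1.24, interval -1.31 to -1.16).

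*Itgb3*, the beta chain of the platelet and osteoclast receptors, was at 2.77 and 4.37 RPKM in shControl cells, 3.10 and 4.74 in shKDM4D, 1.27 and 1.68 in shMLL1, and 3.85 and 3.59 in shNFIB cells. The shMLL1 libraries were the lowest at both days. Within each library the ratio of *Itgb5* to *Itgb3* went from 18.3 to 7.11 in shControl, from 19.2 to 7.03 in shKDM4D, from 32.9 to 14.7 in shMLL1 and from 21.7 to 9.87 in shNFIB cells. The ratio was lower at day 5 in each line. *Itgb8* (chromosome 12, 119158022 to 119238802, minus strand), whose pair with *Itgav* activates latent TGF-beta, was at 0.859 and 1.11 RPKM in shControl and 0.453 and 0.740 in shKDM4D cells. It went from 1.14 to 4.52 RPKM in shMLL1 cells and from 0.392 to 1.32 in shNFIB cells. These 2 lines passed 2-fold, but shNFIB cells were at 0.91 with quantile normalization, and shKDM4D cells reached 1.18 with the ratio to *Gapdh*. Their changes exceeded that of shControl cells by 1.39 (0.94 to 1.83) in shNFIB and 1.62 (1.32 to 1.91) in shMLL1 cells. *Itgb6*, the epithelial partner of *Itgav*, stayed at or under 0.399 RPKM.

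Of the RGD-binding alpha chains at low level, *Itga8* (chromosome 2, 12106632 to 12301922, minus strand), a nephronectin receptor chain of kidney and smooth muscle, had the largest upward change of all 19 genes in each line. It went from 0.117 to 1.36 RPKM in shControl, from 0.0556 to 0.885 in shKDM4D, from 0.0320 to 1.43 in shMLL1 and from 0.0727 to 1.48 in shNFIB cells. At day 0 it had 8 to 23 reads and at day 5 141 to 402 reads. On the log2 scale this amounted to 3.54 (2.91 to 4.23), 3.99 (2.98 to 5.23), 5.48 (4.54 to 6.62) and 4.35 (3.44 to 5.43) in that order. *E030013I19Rik* on the opposite strand shares 5.05% of its exon length.

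*Itga2b*, the alpha chain of the platelet fibrinogen receptor, went from 0.420 to 1.23 RPKM in shControl cells, from 0.253 to 0.848 in shKDM4D, from 0.379 to 1.32 in shMLL1 and from 0.177 to 0.810 in shNFIB cells. Its log2 change was between 1.55 and 2.20, but under 1 in every line with quantile normalization. Its reads numbered 18 to 79 at day 0 and 70 to 274 at day 5.

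The collagen receptor chains set the lines apart. *Itga1* (chromosome 13, 114953096 to 115101964, minus strand), which favours the type IV collagen of basement membranes, went from 0.549 to 2.20 RPKM in shControl, from 0.999 to 5.29 in shKDM4D and, at a lower level, from 0.343 to 1.36 in shMLL1 cells. In shNFIB cells it was at 0.786 and 0.767 RPKM. At day 5 shKDM4D cells were thus the highest and shNFIB cells the lowest. Its log2 change was 2.00 (1.80 to 2.21), 2.41 (2.24 to 2.57) and 1.98 (1.78 to 2.19) in the first 3 lines and -0.04 (-0.30 to 0.22) in shNFIB cells. With quantile normalization the shMLL1 change was 0.73, below 2-fold. The change in shNFIB cells was below that of shControl cells by a log2 difference of -2.04 (-2.36 to -1.72). *Gm49395* shares 3.68% of the *Itga1* exon length on the same strand.

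*Itga11* (chromosome 9, 62677826 to 62783982, plus strand), the fibrillar collagen receptor chain of fibroblasts, was at 2.17 and 1.96 RPKM in shControl cells and at 3.84 and 4.55 in shNFIB cells. It fell from 2.58 to 1.06 RPKM in shKDM4D cells and rose from 0.592 to 2.11 in shMLL1 cells. The lowest level of the 8 libraries was that of shMLL1 cells at day 0. The log2 change was 1.83 (1.53 to 2.14) in shMLL1 and -1.28 (-1.61 to -0.96) in shKDM4D cells, although the first was 0.98 with quantile normalization and the second -0.81 with the ratio to *Gapdh*. *Itga2* and *Itga10*, the remaining collagen-binding chains, stayed at or under 0.160 RPKM.

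*Itgb7* (chromosome 15, 102215995 to 102231944, minus strand), known as the beta chain of gut-homing lymphocytes, fell in every line. It went from 3.25 to 0.112 RPKM in shControl cells (240 and 6 reads), from 3.23 to 0.117 in shKDM4D (175 and 7 reads), from 1.35 to 0.228 in shNFIB (70 and 10 reads) and from 4.42 to 0.360 in shMLL1 cells (468 and 38 reads). All day 0 levels were above 1 RPKM and all day 5 levels below 0.4. The corresponding log2 changes were -4.86 (-6.32 to -3.72), -4.79 (-6.13 to -3.72), -2.57 (-3.69 to -1.61) and -3.62 (-4.14 to -3.14). Its usual partners *Itga4* and *Itgae* were at 0 to 0.203 RPKM. The other leukocyte chains *Itgal*, *Itgam*, *Itgax* and *Itgad* never exceeded 3 reads. *Itgb2*, shared by most leukocyte integrins, was under 1 RPKM but went from 0.135 to 0.576 RPKM in shControl cells and from 0.0772 to 0.688 in shMLL1 cells.

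Markers of leukocytes were low throughout. The 8 leukocyte markers summed to between 0.581 and 2.23 RPKM at day 0 and between 1.51 and 1.79 at day 5, mostly from *Cd68* and *Lyz2*. *Cd3e* and *Tyrobp* were at 0 in all 8 libraries, and *Ptprc* was at most 0.00559 RPKM. The 6 endothelial markers summed to between 0.243 and 1.72 RPKM at day 0 and between 0.489 and 1.31 at day 5, with *Tie1* at 0 throughout. Of the 8 muscle and Schwann cell markers, *Acta2* made nearly all of the sum, which was 846 to 1283 RPKM at day 0 and 293 to 885 at day 5, and *Myog* was at most 0.0422 RPKM. The mesenchymal sum was 1318 to 1666 RPKM at day 0 and 1624 to 2046 at day 5. *Vim* was its largest part in every library, at 984 to 1512 RPKM. In shMLL1 cells *Ly6a* went from 81.5 to 927 RPKM, while *Vim* went from 1280 to 984.

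The second question was how the knockdown lines differed from shControl cells. All 3 ratios at a given day share the same shControl library. At day 0 none of the 19 genes over 1 RPKM was past 2-fold up in any line, against 1.98% of all expressed genes in shKDM4D, 1.67% in shMLL1 and 2.95% in shNFIB cells. Lower by more than 2-fold were 1 of the 19 genes in shKDM4D cells (all genes 4.26%), 4 in shNFIB cells (all genes 6.05%) and 5 in shMLL1 cells (all genes 7.43%). The median log2 ratio of the 19 was -0.01, -0.13 and -0.28, against 0.00, 0.03 and -0.07 for all genes, but it was 0.14 in shNFIB cells with quantile normalization. Among the genes under 1 RPKM, *Itga9* was above shControl at day 0 by 2.03 (0.83 to 3.40) in shKDM4D and 1.60 (0.31 to 3.02) in shNFIB cells, and *Itgb6* by 1.15 (0.51 to 1.82) in shNFIB cells. The *Itga9* ratios rest on 24 and 17 reads against 8. Other genes under 1 RPKM were lower at day 0. *Lama5* was at -1.03 (-1.78 to -0.32) in shKDM4D and -2.16 (-3.29 to -1.19) in shNFIB cells. *Itga7* was at -1.69 (-3.44 to -0.26) in shNFIB and -1.04 (-2.06 to -0.06) in shMLL1 cells. *Lama3* had 17 reads in the shControl library and at most 3 in any knockdown library. Without the filter, the 37 genes gave 3 up and 4 down in shKDM4D, 5 and 8 in shNFIB, and 0 and 10 in shMLL1 cells.

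In shKDM4D cells at day 0 the gene past 2-fold was *Itga8* (-1.08), whose counting interval from -2.45 to 0.14 includes 0 and which was at -0.04 with quantile normalization. In shNFIB cells they were *Itga2b* (-1.25), *Itga3* (-1.42), *Itgb7* (-1.26) and *Itgb8* (-1.13), and none of them passed 2-fold with the ratio to *Gapdh*, which itself had a log2 ratio of -0.64. That ratio brought 7 other genes past 2-fold up instead, namely *Itga1* (1.16), *Itga11* (1.47), *Itgav* (1.05), *Itgb3* (1.11), *Itgb5* (1.36), *Lamb2* (1.01) and *Lamb3* (1.36). Of the 4 calls, quantile normalization kept that of *Itgb7*. In shMLL1 cells they were *Itga8* (-1.87, interval -3.17 to -0.71), *Itga11* (-1.87, -2.19 to -1.56), *Itgb3* (-1.12, -1.34 to -0.91), *Itgb4* (-1.89, -2.47 to -1.33) and *Lamb2* (-1.23, -1.31 to -1.15). Of these, *Itga8*, *Itgb3* and *Itgb4* were within 2-fold under quantile normalization. *Lamb2* is the only abundant gene among them.

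At day 5, 1 of the 19 genes was past 2-fold up and none down in shKDM4D cells (all genes 1.88% and 4.57%). In shNFIB cells 3 were up and 1 down (all genes 5.54% and 5.67%), and in shMLL1 cells 2 were up and 2 down (all genes 5.25% and 4.02%). The median log2 ratio was 0.08, -0.10 and -0.25, against 0.01, 0.09 and 0.07 for all genes. *Itga1* and *Itgb7* were each past 2-fold in 2 lines. In shKDM4D cells the gene was *Itga1* (1.27, 1.15 to 1.39). In shNFIB cells *Itga11* (1.22, 0.96 to 1.48), *Lamb3* (1.77, 1.40 to 2.16) and *Itgb7* (1.02, -0.58 to 2.77) were up and *Itga1* (-1.52, -1.74 to -1.31) was down. In shMLL1 cells *Itgb8* (2.03, 1.83 to 2.23) and *Itgb7* (1.68, 0.43 to 3.22) were up, and *Itgb3* (-1.37, -1.57 to -1.18) and *Itgb4* (-2.00, -2.31 to -1.70) were down. The *Itgb7* ratios rest on 6 reads in the shControl library, and that of shNFIB cells was 0.94 with median-of-ratios scaling. Quantile normalization brought *Itgb7* (1.15) and *Lamb3* (1.31) past 2-fold up in shKDM4D cells.

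**Figure D5:**
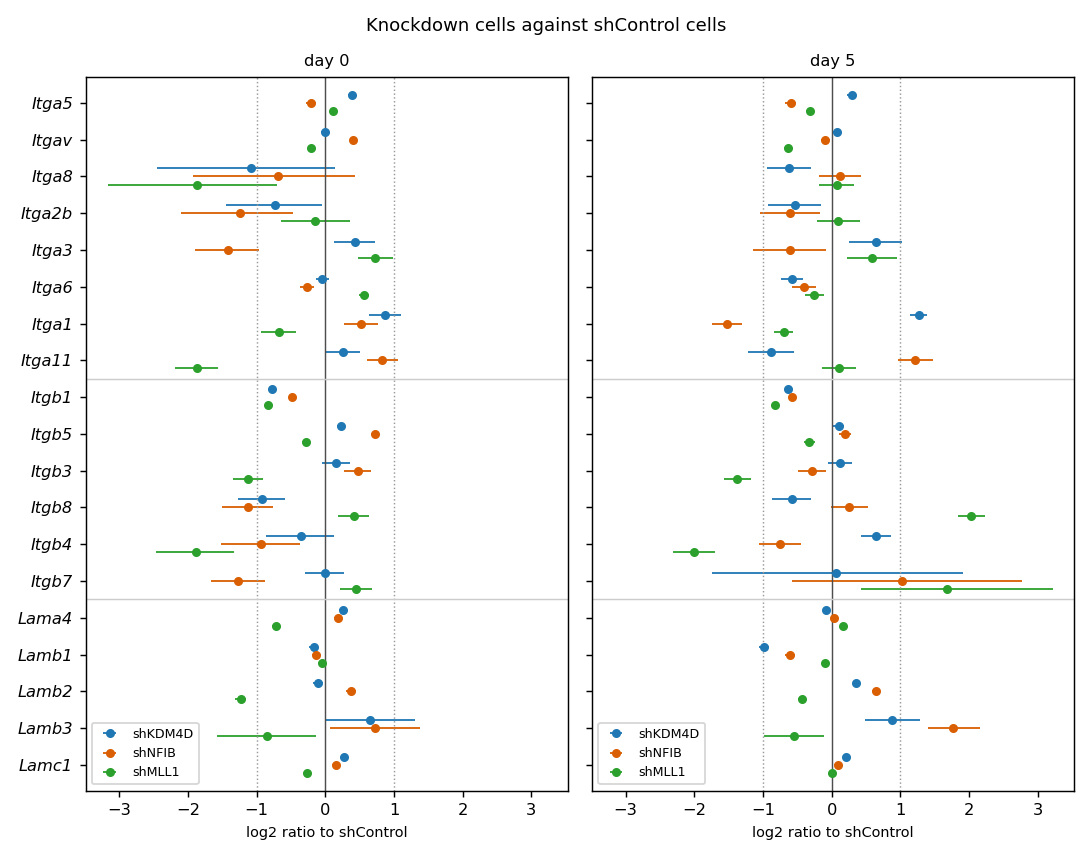
The log2 ratio of each knockdown line to shControl cells for the 19 genes at day 0 (left) and day 5 (right), with exact 95% counting intervals as bars and dotted lines at 2-fold. No point lies beyond the right dotted line at day 0. At day 5 *Itga1* has shKDM4D (1.27) and shNFIB (-1.52) on opposite sides, and *Itgb4* of shMLL1 cells lies furthest left at -2.00.

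*Itgb1* (chromosome 8, 128685654 to 128733200, plus strand) differed less than 2-fold in each comparison of RPKM values, and it was the highest of the 37 genes. Its RPKM was 265 and 243 in shControl cells, 154 and 157 in shKDM4D, 149.6 and 138 in shMLL1, and 189 and 163 in shNFIB cells. Both shControl libraries lay above all 6 knockdown libraries. The log2 ratio to shControl was -0.78 (-0.81 to -0.75) in shKDM4D, -0.49 (-0.52 to -0.46) in shNFIB and -0.83 (-0.85 to -0.80) in shMLL1 cells at day 0. At day 5 it was -0.63 (-0.66 to -0.60), -0.57 (-0.61 to -0.54) and -0.82 (-0.85 to -0.79). Dividing by *Gapdh* turned the shNFIB value at day 0 to 0.15, and the others were lower under each scaling tried, passing 2-fold with the ratio to *Gapdh* at day 0 in shKDM4D (-1.18) and shMLL1 cells (-1.04) and at day 5 in shMLL1 cells (-1.17).

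Few partners inside the cell passed 2-fold. Of 25 cytoplasmic adhesion genes (talins, vinculin, kindlins, focal adhesion kinase and the like), 23 were expressed. Past 2-fold between days were 1 up in shControl cells (*Lims2*, 1.14 to 2.72 RPKM) and 1 up in each knockdown line (*Tln2* in shKDM4D, *Lims2* in shNFIB and shMLL1 cells), with 1 down (*Parvb* in shMLL1 cells). The shares of all genes in these comparisons were 12.6% to 20.4% up and 4.96% to 8.56% down. Some changes lay just under the threshold, such as vinculin (*Vcl*), from 42.1 to 82.9 RPKM in shControl cells. Their median change was -0.02 in shControl, -0.12 in shKDM4D, -0.21 in shMLL1 and -0.24 in shNFIB cells. Against shControl, only *Lims2* passed 2-fold, lower in shMLL1 cells at day 0 (all genes 7.43%) and in shKDM4D cells at day 5 (all genes 4.57%).

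The partners of laminin in the basement membrane moved more. Of 20 basement membrane and laminin receptor genes, 16 were expressed, and 4 were up and 1 down between days in shControl cells. In the knockdown lines 5 were up in each, with 1 down in shMLL1 cells, against the same shares of all genes. The median change was 0.68 in shControl, 0.55 in shKDM4D, 0.79 in shMLL1 and 0.76 in shNFIB cells, above the 0.03 to 0.17 of all genes. *Nid2*, which joins laminin to type IV collagen, went from 17.9 to 114 RPKM in shControl cells (log2 change 2.68, 2.61 to 2.74). *Col15a1*, a collagen at the outer face of basement membranes, went from 1.13 to 38.9 RPKM (5.11, 4.90 to 5.32), and *Sspn*, part of the dystroglycan-linked laminin receptor, from 5.41 to 11.7 RPKM (1.11, 0.98 to 1.25).

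*Nid2* and *Col15a1* were also past 2-fold up in the 3 knockdown lines, with *Nid2* at 1.66 to 2.86 and *Col15a1* at 3.75 to 6.14 on the log2 scale. *Agrn*, a heparan sulfate proteoglycan that binds laminin, differed widely between lines at day 5, with 3.21 RPKM in shControl, 2.39 in shKDM4D, 29.4 in shMLL1 and 9.80 in shNFIB cells. The long-known laminin linker *Nid1* went from 28.2 to 20.1 RPKM in shControl cells and from 19.5 to 7.34 in shMLL1 cells. Against shControl at day 0, *Col15a1* was up in shKDM4D cells, *Col18a1* was down in shNFIB cells, and 4 genes (*Col15a1*, *Sgca*, *Sgcd* and *Sspn*) were down in shMLL1 cells. At day 5 none passed in shKDM4D cells, 2 were up and 3 down in shNFIB cells, and 1 was up and 1 down in shMLL1 cells. Of all genes, 1.67% to 2.95% were up and 4.26% to 7.43% down at day 0. At day 5 these shares were 1.88% to 5.54% and 4.02% to 5.67%.

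Of 24 other integrin ligands, 22 were expressed. Between days 8 were up and 2 down in shControl and in shKDM4D cells, 10 and 1 in shMLL1, and 9 and 2 in shNFIB cells. Of all genes, 13% were up and 8.56% down in shControl, 12.8% and 8.44% in shKDM4D, 20.4% and 6.89% in shMLL1, and 12.6% and 4.96% in shNFIB cells. *Postn*, a matricellular ligand of *Itgav* pairs, went from 34.5 to 233 RPKM in shControl cells (2.76, 2.72 to 2.79). The type VI collagen genes *Col6a1* (89.5 to 489 RPKM) and *Col6a2* (34.0 to 206 RPKM) rose there by 2.45 and 2.60 on the log2 scale, whereas *Ctgf* fell from 16.4 to 6.91 RPKM. *Fn1*, the main ligand of *Itga5*, was at 438 and 385 RPKM in shControl cells, 504 and 470 in shKDM4D, 183 and 328 in shMLL1, and 172 and 183 in shNFIB cells. *Fn1* was thus lowest in shNFIB cells, the line with the lowest *Itga5* at both days, and a link was not tested. At day 0 *Fn1* was nearly as low in shMLL1 cells, with *Itga5* at 37.9 RPKM against 34.9 in shControl cells.

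Against shControl at day 0, the ligands past 2-fold were 2 up and 1 down in shKDM4D, 3 up and 5 down in shNFIB, and 1 up and 2 down in shMLL1 cells. At day 5 they were 2 up and none down in shKDM4D, 4 up and 2 down in shNFIB, and 4 up and 3 down in shMLL1 cells. Over these 6 comparisons 1.67% to 5.54% of all genes were up and 4.02% to 7.43% down. The median change of the ligands between days was 0.13 in shControl, 0.33 in shKDM4D, 0.75 in shMLL1 and 0.43 in shNFIB cells. *Thbs1*, a ligand of *Itgav* pairs and of the *Itga3* chain, was past 2-fold up in shKDM4D and shNFIB cells at both days and in shMLL1 cells at day 5.

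The remaining genes were at the edge of detection. Of the 18 genes at or under 1 RPKM in every library, the highest value was 0.894 RPKM (*Itgb2*, shKDM4D cells, day 5), 8 of them never reached 0.1 RPKM, and 6 never exceeded 10 reads. In a library of the depths used here, a 1-kb transcript needed 0.0785 to 0.189 RPKM to be covered by 3 reads. *Itga4* had 0 to 3 reads at day 0 and 9 to 84 reads at day 5, and *Lama2* had 3 to 8 and 20 to 114 reads. Both had more reads at day 5 than at day 0 in every line. *Itga9*, which pairs with *Itgb1*, was at 0.160 and 0.415 RPKM in shKDM4D and 0.118 and 0.304 in shNFIB cells, against 0.0390 and 0.0471 in shControl cells. *Gm49368* shares 68.7% of the exon length of *Itgam* and *Gm42957* 33.5% of that of *Itga10* on the same strand, so the values of these genes are uncertain.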

How the data were processed

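RNA-seq libraries (SMARTer stranded kit) of 4 lines at 2 days were analysed, 1 library per condition. According to their methods, the authors used CLC Genomics Workbench 11.0.1 and GRCm38 for mapping, with both fractions (length and similarity) at 0.8, costs of 3 for insertions and deletions and of 2 for mismatches, and deposited RPKM values per gene symbol. Of 41325 symbols, 40851 were found in GENCODE M21. RPKM multiplied by exon length gave whole reads (tolerance 0.02) for 96.1% to 96.5% of values from 1 to 1000 reads and for all 261 values above 0 of the 37 genes, and hence the depth of each library.

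A call needed an RPKM ratio past 2-fold without pseudocount in a gene over 1 RPKM in at least 1 library. The filter and the fold follow the study's methods, which also name quantile normalization, an FDR and a restriction to protein-coding genes, not applied to these calls. Ratios of 1 library to another were not tested. The change between days was tested over the 4 lines with limma 3.58.1 (R 4.3.3) on log2(RPKM + 0.1), with line and day as terms, a fit chosen after seeing the data. Intervals are exact Clopper-Pearson intervals conditional on summed reads, also for ratios within a library, where they are scaled by exon length. Those for differences of changes are normal on the log scale. All cover counting error only. Differences of changes needed 10 reads in each of 4 libraries. Genes over 1 RPKM were described in full if they reached 5 RPKM or passed 2-fold in a comparison, and list genes were named if they were among the 3 largest changes per direction in shControl cells with at least 5 RPKM in either library. Further list genes (*Lims2*, *Tln2*, *Vcl*, *Parvb*, *Agrn*, *Nid1*, *Col18a1*, *Sgca*, *Sgcd*, *Fn1*, *Thbs1*) were chosen after their values were seen. The genes and lists were chosen with earlier results of these data known. The values of 1 of the 37 genes are not reported here. The scripts were checked on simulated data. Alternatives were no filter, RPKM over 2, adding 0.1 or 1, median-of-ratios, quantile (named in the methods) and *Gapdh* scaling, and 2 stricter call rules added after seeing the data. Python 3.11.15, numpy 2.4.6, pandas 2.3.3, scipy 1.17.1 and matplotlib 3.10.9 were used.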

Additional observations from a re-analysis of the deposited data

Results flagged for a closer look

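*Itga1* at day 5 stood out because the knockdown lines differed from shControl cells in opposite directions, with a log2 ratio of 1.27 (1.15 to 1.39) in shKDM4D and -1.52 (-1.74 to -1.31) in shNFIB cells. The difference between the lines was not tested, since each has 1 library, and both ratios share the shControl library. *Itga11* changed in opposite directions between the days, by 1.83 (1.53 to 2.14) in shMLL1 and -1.28 (-1.61 to -0.96) in shKDM4D cells, and this difference was not tested either. *Itgb7* was above shControl in shNFIB cells at day 5 (1.02, -0.58 to 2.77) and below it at day 0 (-1.26, -1.67 to -0.87). The day 5 interval includes 0 at 10 reads against 6, and the difference between days was not tested.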

How the results depend on the processing

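Of 80 counts of genes past 2-fold under other settings, 47 stayed within 1.5 times the reported count. Without the filter on RPKM the counts over the 37 genes were 20, 19, 20 and 22 between days (shControl, shKDM4D, shNFIB, shMLL1). They were 7, 13 and 10 against shControl at day 0 and 10, 13 and 13 at day 5 (shKDM4D, shNFIB, shMLL1). Adding 1 to every RPKM left 4, 5, 4 and 6 between days, 0, 0 and 1 at day 0, and 0, 0 and 2 at day 5. Adding 0.1 left 0 in shKDM4D and 2 in shNFIB cells at day 0, and a filter of RPKM over 2 left 0 in shKDM4D cells at day 0. Quantile normalization gave 7 in shMLL1 cells between days, 0, 1 and 2 against shControl at day 0, and 3 in shKDM4D cells at day 5. It moved the split from 7 up and 1 down to 5 and 3 in shControl cells and from 9 and 2 to 4 and 3 in shMLL1 cells. Requiring the counting interval to exclude 0 left 0 in shKDM4D cells at day 0. Requiring the whole interval past 2-fold left 0, 0 and 3 at day 0 and 2 in shNFIB cells at day 5. Both rules were chosen after seeing the data.

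Of 56 single ratios past 2-fold, 51 stayed past it with 0.1 added, 22 with 1 added, 55 with median-of-ratios scaling, 38 with quantile normalization and 50 with the ratio to *Gapdh*, which brought 18 others past it. Only 2 changed direction, *Itgb4* (-0.42) and *Lamb3* (-0.56) between days in shMLL1 cells under quantile normalization, and the cause was not tested. Relative to the RPKM values, the median of all genes between days moved by -0.16 with median-of-ratios scaling in shMLL1 cells, and by -0.16 in shNFIB and -0.29 in shMLL1 cells with quantile normalization. At day 0 quantile normalization moved it by 0.11 in shMLL1 cells. In the limma fit with line as a block, in which day 0 and day 5 of a line form a pair, 11 of the 19 genes were called between days, and 9 without the block. Quantile normalization gave 7, median-of-ratios scaling 11 and adding 1 to every RPKM 10. Leaving out each line in turn gave 9 to 11, with *Itga1* lost without shControl, shKDM4D or shMLL1 and *Itgb8* lost without shNFIB or shMLL1. Of all 11513 genes, 5752 were called with the block and 4449 without it. Quantile normalization called 5605 of all genes, median-of-ratios scaling 5897 and adding 1 to every RPKM 5624. With a line left out, 4394 to 4784 of all genes were called. Depth limits the genes under 1 RPKM, such as *Itgb7* at day 5 with 6 reads in shControl cells.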
